A study of Mus musculus with 14 samples.

Results

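The basal keratin genes Krt5, Krt14 and Krt15 were followed through sustained SOX9 expression in epidermal stem cells (EpdSCs) of mouse back skin. They were picked out by gene symbol, with earlier results of these data known, and make up 3 of the 54332 rows of the time-course table. RNA-seq was made from 10 libraries, 2 biological replicates at each of D0, W1, W2, W6 and W12 of doxycycline (DOX), and every value is in TPM, transcript abundance corrected for length and scaled to the same total in each library. All 10 libraries came from CD1 mice that the labels give as male and that carried both K14rtTA and TRE-myc-Sox9, so the D0 controls held the same transgenes and differed in time on DOX. DOX was started at P21, and the ungrafted cells were taken at P21 (D0), P28 (W1), P35 (W2) and P63 (W6). The W12 cells came from neonatal skin of the same genotype that had been grafted onto female Nude mice and healed before DOX, so that 12 weeks of DOX and grafting cannot be told apart, nor can DOX and age at the other timepoints. The cells were sorted as negative for CD31, CD45, CD117 and CD140a, high for CD49f, negative for CD34 and high for Ly6A. The transactivator that turns on Sox9 is driven by a Krt14 promoter, so the transgene depends on the activity of that promoter.

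Keratins form the intermediate filaments of epithelial cells, each filament being built from pairs of a type I and a type II chain. In the basal layer of the epidermis the type II keratin KRT5 pairs with the type I keratin KRT14, and cells that leave this layer switch to KRT1 and KRT10. KRT15 is a further type I keratin of basal cells and is known as a marker of the hair follicle bulge, where hair follicle stem cells reside.

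Several libraries stood apart from the rest. D0 replicate 2 held 4.61 TPM of Xist, which female cells express, and 0.0279 TPM of Ddx3y, a gene of the Y chromosome, against 0.00103 and 32.1 TPM in D0 replicate 1, which goes against the male label of replicate 2, so the members' results against D0 are also given without it. Both W12 libraries had both RNAs (Xist 5.51 and 3.50 TPM, Ddx3y 10.97 and 12.87 TPM), and Ddx3y was between 21.9 and 32.7 TPM in the other 7 libraries. The sum of 12 immediate-early and stress genes was 31248 and 50521 TPM at D0 and between 5469 and 12877 TPM in the later libraries. In that list Hspa1a and Hspa1b went the other way, with means of 149 and 337 TPM at D0 and 367 and 766 at W2. All others of the list had their highest mean at D0. All 4 endothelial markers were found at W12, with a sum of 34.1 and 78.5 TPM, mostly Pecam1 (the gene of CD31), against at most 1.57 TPM in any other library, where Cdh5 was at 0 from D0 to W2. The sum of 5 immune markers was 102 and 125 TPM at W12, nearly all of it Cd74, and 3.56 to 27.5 TPM elsewhere, while the pan-leukocyte gene Ptprc was at 0.173 TPM on average at W12, and Cd3e, Cd3g and Cd207 were at most 0.0522 TPM on average there. The 4 hair follicle stem cell markers summed to at most 5.51 TPM in any library of D0 to W2, 5.65 and 12.8 TPM at W6, and 18.9 and 35.3 TPM at W12, where most of the sum was Cd34. The others went different ways, with means at D0, W6 and W12 of 0.508, 3.28 and 1.17 TPM for Lgr5, 2.77, 1.63 and 1.40 TPM for Lhx2, and 0.296, 0.471 and 0.262 TPM for Krt75. Cd34, whose product the cells were sorted against, was at 0.0614 and 0.383 TPM at D0, 2.66 and 5.04 at W6, and 16.6 and 32.0 at W12, higher than at D0 by 1.96 at W6 (adjusted p = 0.00442) and 4.31 at W12 (adjusted p = 5.77e-05) on the log2(TPM + 1) scale in limma's test. Ly6a, whose product they were sorted for, was at -1.22 at W2 (adjusted p = 0.00905), -0.94 at W6 (adjusted p = 0.0146) and 0.80 at W12 (adjusted p = 0.0211) against D0. Each of these calls was lost without 1 library or another, at W2 without W2 replicate 2, at W6 without D0 replicate 1 or W6 replicate 1, and at W12 without D0 replicate 2 or either W12 library (adjusted p from 0.0519 to 0.116). The part of any of these in the keratin values was not tested. The 5 fibroblast markers summed to at most 2.39 TPM in any library, and the transgene row MYC-SOX9 rose from 67.6 ± 31.1 TPM at D0 to 3400 ± 19.4 at W1 and stood at 755 ± 210 at W12 (SD, n = 2). The row of the mouse Sox9 gene itself had its lowest mean at W1 (3.37 TPM, against 10.5 before DOX) and was between 6.61 and 11.7 TPM on average at the later timepoints. The transgene was built from the Sox9 coding sequence, so reads in that sequence cannot be placed between the rows by sequence alone.

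In the GENCODE M21 annotation of GRCm38, Krt15 lies on chromosome 11 at 100131758 to 100135928 and Krt14 at 100203162 to 100207548, both on the minus strand and 67233 bases apart. Krt5 lies on chromosome 15 at 101707070 to 101712898, also on the minus strand, and overlaps Gm44323 on the plus strand. The protein-coding transcript has 9 exons in Krt5 and 8 in Krt14 and Krt15. The genes share sequence with their relatives, which bears on how reads can be assigned. Of all runs of 31 bases in the main transcript, 29.1% of those of Krt14 were found in another gene on either strand (18.2% in Krt16 and 10.8% in Krt17), against 15.8% for Krt5 (9.46% in Krt6a, 6.09% in Gm5478, 5.12% in Krt6b and 4.57% in the overlapping Gm44323) and 3.89% for Krt15 (2.16% in Krt17). Krt15 thus had the smallest shared part of the 3. The coding sequence of Krt14 was 86.0% identical to that of Krt16, 83.8% to Krt17 and 73.2% to Krt15, and that of Krt5 was 81.3% identical to Krt6b and 81.0% to Krt6a. Below are 90 coding bases of Krt14, Krt16, Krt17 and Krt15 (5′ to 3′, GENCODE M21 transcripts), centred on the longest run that Krt14 shares with Krt16, with capitals for bases that differ from Krt14.
Krt14: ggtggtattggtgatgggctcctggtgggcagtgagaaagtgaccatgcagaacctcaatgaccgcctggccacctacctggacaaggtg
Krt16: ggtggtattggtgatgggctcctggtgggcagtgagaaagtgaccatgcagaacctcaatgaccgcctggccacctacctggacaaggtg
Krt17: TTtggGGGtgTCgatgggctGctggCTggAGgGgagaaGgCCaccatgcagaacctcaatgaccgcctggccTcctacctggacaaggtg
Krt15: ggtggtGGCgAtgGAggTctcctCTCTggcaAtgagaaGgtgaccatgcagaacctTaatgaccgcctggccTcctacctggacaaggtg
Krt16 had 0 differences from Krt14 here, in a shared run of 134 bases, while Krt17 had 17 and Krt15 had 15. A read pair lying wholly in a stretch identical between genes cannot be placed by its sequence, and the division of such reads between the members and their relatives was Salmon's estimate, made on GENCODE release M24, whereas these overlaps were counted on M21.

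Krt5, the type II member, had a lower TPM at each timepoint than at the one before. Its TPM were 14774 and 14609 at D0, 12307 and 12354 at W1, 10396 and 10548 at W2, 9411 and 8227 at W6, and 7833 and 7343 at W12. The libraries of no timepoint overlapped those of any other, each timepoint lying wholly below the one before it. The share of all genes whose libraries separate in this way was not computed, so the separation only describes these values. Relative to D0 on the log2(TPM + 1) scale, Krt5 fell by 0.74 at W6 (SE 0.17, adjusted p = 0.0120) and fell by 0.95 at W12 (SE 0.17, adjusted p = 0.00270), in limma's test with Benjamini-Hochberg adjustment over 13110 genes. Its mean at W12 was 51.7% of the D0 mean. The earlier changes of -0.25 at W1 (95% interval -0.64 to 0.13, adjusted p = 0.390) and -0.49 at W2 (-0.87 to -0.10, adjusted p = 0.0868) did not pass. Without D0 replicate 2 the changes at W6 and W12 were -0.75 and -0.96 (adjusted p = 0.0145 and 0.00374). The W6 call rested on W6 replicate 2, without which the change was -0.64 (adjusted p = 0.0729), and both calls were lost when only the 4 libraries compared were fitted (adjusted p = 0.229 at W6 and 0.0863 at W12).

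**Figure D1:**
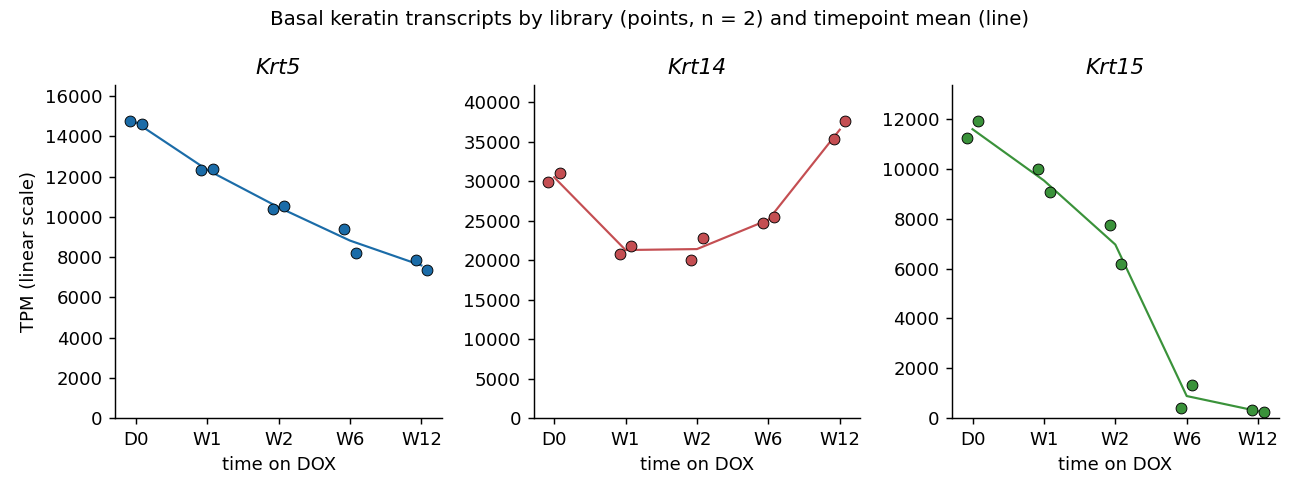
TPM (linear axes from 0, a different range in each panel) of Krt5, Krt14 and Krt15 in each of the 10 libraries, shown as points with 2 replicates per timepoint, against time on DOX, with lines through the timepoint means. Krt5 steps down from a mean of 14691 to 7588 TPM, Krt14 passes through a low at W1 and W2 and is highest at W12 (36519 TPM), and Krt15 drops between W2 (6961 TPM) and W6 (889.8 TPM).

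The start of Krt5 is shown as that of the only member with a listed window at the start of its coding transcript. The RefSeq window around it (GRCm38.p6, chr15:101712856-101713155, minus strand, 250 bases before to 50 after the start site at 101712905) reads as follows, with a match to the p63 half-site, a degenerate motif searched on both strands, in capitals.
Krt5: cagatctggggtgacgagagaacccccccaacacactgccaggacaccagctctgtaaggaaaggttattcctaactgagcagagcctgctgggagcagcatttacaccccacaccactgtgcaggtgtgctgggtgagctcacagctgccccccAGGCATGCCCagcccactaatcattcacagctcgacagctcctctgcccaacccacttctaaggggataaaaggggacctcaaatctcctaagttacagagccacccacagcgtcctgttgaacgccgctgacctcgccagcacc
The match begins 95 bases before the start site, and 8.36% of 32851 such windows hold one. For the TATA box only exact letters were searched, so near forms such as the gataaa in this window were not counted. The letters TATAAA, one form of the TATA box, were not found on either strand and occur in 13.6% of all windows. The same was true of the AP-1 letters TGANTCA, which 7.81% of windows hold, and of the AP-2 letters GCCNNNGGC, which 16.6% hold. Neither the Sp1 letters GGGCGG, held by 35.7%, nor the SOX letters ACAANG, held by 41.2%, were found. The window listed for Krt14 lies at an internal start of a noncoding transcript and is not printed.

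Krt14, the type I partner of Krt5 and the gene whose promoter drives the transactivator, was the most abundant member in every library and took another course. Its TPM were 29902 and 31096.5 at D0, 20730.5 and 21849 at W1, 19997 and 22823 at W2, 24719 and 25508 at W6, and 35371 and 37666 at W12. All libraries of W1, W2 and W6 lay below those of D0, and those of W12 lay above every other. Only W1 and W2 overlapped. How many of all genes separate in this way with 2 libraries against 2 was not computed. None of the 4 changes from D0 passed the test. The values were -0.52 after 1 week (SE 0.19, adjusted p = 0.137), -0.51 at W2 (adjusted p = 0.111), -0.28 at W6 (adjusted p = 0.295) and 0.26 at W12 (95% interval -0.18 to 0.70, adjusted p = 0.308). Without D0 replicate 2 they were -0.49, -0.49, -0.25 and 0.29, and again none passed. The step from W6 to W12 was 0.54 (SE 0.19, adjusted p = 0.0840). It passed at 0.71 (adjusted p = 0.0475) with TPM rescaled by median ratios, a scaling that lifts the median change of all genes in this step from -0.16 to -0.01, and at 0.54 without either D0 library (adjusted p = 0.0257 without replicate 1 and 0.0244 without replicate 2). Krt14 ranked 1 or 2 among all genes in each of the 10 libraries and made up 2.00% to 3.77% of all TPM.

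Krt15, the type I keratin of basal cells and the bulge, was the member that changed most from D0 at W6 and W12. At W1 that was Krt14 (-0.52, not called). Its TPM were 11241 and 11928 at D0, 10002 and 9055 at W1, 7757 and 6166 at W2, 429 and 1350.1 at W6, and 322 and 242 at W12. Each timepoint lay wholly below the one before it, a separation whose share over all genes was not computed. By mean TPM the gene ranked 4 of all genes at D0, 6 at W1 and W2, 177 at W6 and 590 at W12. Relative to D0, Krt15 fell by 3.92 at W6 on the log2 scale (SE 0.44, adjusted p = 0.000508) and fell by 5.37 at W12 (SE 0.44, adjusted p = 5.73e-05), with a W12 mean at 2.44% of that of D0. Of 13110 genes, 22 had a larger fall at W6 and 3 at W12. The changes of -0.28 at W1 (95% interval -1.28 to 0.72, adjusted p = 0.742) and -0.74 at W2 (-1.74 to 0.25, adjusted p = 0.285) did not pass, although the W2 change passed at the same size without W6 replicate 1 or W6 replicate 2 (adjusted p = 0.0437 and 0.0421). Without D0 replicate 2 the changes at W6 and W12 were -3.88 and -5.33 (adjusted p = 0.00473 and 0.000845).

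The step of Krt15 from W2 to W6 passed. In it the gene fell by 3.18 (SE 0.44, adjusted p = 0.00445), with 18 of 13110 genes falling further, while its change from W1 to W2 was -0.46 (adjusted p = 0.678). The W6 libraries differed 3.14-fold from each other, and the falls at W6 moved with them: against D0 the change was -3.10 without W6 replicate 1 and -4.75 without W6 replicate 2, and against W2 it was -2.36 and -4.01, all of which passed. Without W6 replicate 1 the step from W6 to W12, at -2.27, was nearly as large as that from W2 to W6. The W6 library with the lower Krt15, replicate 1, differed from replicate 2 in other keratins too. It had the higher Krt79 (6417 against 2375 TPM), Krt17 (11556 against 6011 TPM), Krt6a (4424 against 2603 TPM) and Krt16 (667.5 against 432 TPM). Its Krt42 (106 against 354 TPM), Krt1 (524 against 1098 TPM) and Krt10 (568 against 966 TPM) were lower. From W6 to W12 Krt15 fell by 1.44 (SE 0.44, adjusted p = 0.0493), a call that was lost in most alternatives, with a change of -0.62 without W6 replicate 2 (adjusted p = 0.120). Cd34 was higher at W6 and W12, and the endothelial markers and Cd74 at W12, as given above. In sorted bulk cells, fewer cells with Krt15 and less Krt15 RNA per cell cannot be told apart.

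**Figure D2:**
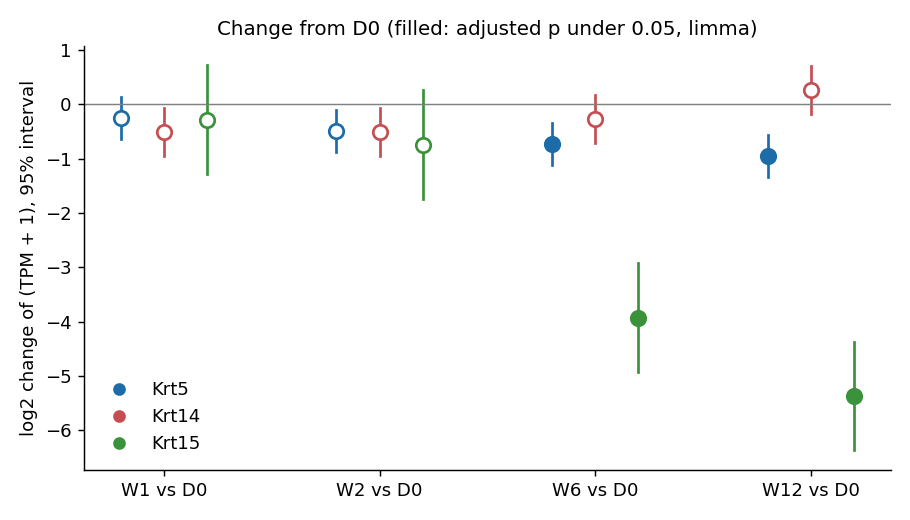
Change of log2(TPM + 1) from D0 (vertical axis) at W1, W2, W6 and W12 for Krt5, Krt14 and Krt15, with 95% intervals from limma over 10 libraries and filled points where the adjusted p is under 0.05. The filled points are Krt5 at W6 and W12 (-0.74 and -0.95) and Krt15 at W6 and W12 (-3.92 and -5.37), while all 4 Krt14 points are open.

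The members' calls were read against those over all genes. In limma's test, 0 of 3 members were called at W1 (1 at an unadjusted p under 0.05) where 9.89% of all genes tested were. At W2 it was 0 of 3 (2 at an unadjusted p under 0.05) against 15.7%, at W6 2 of 3 against 32.4%, and at W12 2 of 3 against 43.0%. Between neighbouring timepoints, 0 of 3 were called from W1 to W2 (0 also at an unadjusted p under 0.05, and 0.114% of all genes called), 1 of 3 from W2 to W6 (16.3%) and 1 of 3 from W6 to W12 (20.2%). These shares over all genes move with single libraries: with 1 library left out, 652 to 2647 genes were called at W2, 2356 to 5047 at W6 and 207 to 3179 from W2 to W6. No step of Krt5 between neighbouring timepoints passed: it changed by -0.25 in its first week on DOX, by -0.24 from W1 to W2 (adjusted p = 0.574), by -0.25 from W2 to W6 (adjusted p = 0.322) and by -0.21 from W6 to W12 (adjusted p = 0.415), the latter shrinking to -0.040 under median-ratio scaling and turning to 0.10 under quantile normalization. Krt14 differed by 0.23 between W2 and W6 (adjusted p = 0.424).

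Across the 10 libraries, Krt5 and Krt15 ran down with the week of DOX, and Krt14 had no such run by rank. Spearman's rho with the week was -0.98 for Krt5 and -0.98 for Krt15, each with an exact two-sided permutation p = 1.76e-05, the smallest that these ties allow, and 5.29e-05 after adjustment over the 6 relations computed. Pearson's r was -0.91 for Krt5 (exact permutation p = 5.29e-05, adjusted 0.000106) and -0.96 for Krt15 (8.82e-06, adjusted 5.29e-05). Without the W12 libraries, which are the farthest from the median week and the only grafted ones, r was -0.92 and -0.96. With every timepoint lying below the one before, rho is at its limit and stays there whichever library is left out. Under median-ratio scaling Krt5 left that limit, with a rho of -0.94 (exact permutation p = 0.000335) and an r of -0.81 (exact permutation p = 0.00477). The rho of Krt15 stayed at -0.98 there. For Krt14, rho was 0.34 (exact permutation p = 0.341) and r was 0.64 (exact permutation p = 0.0485, adjusted 0.0485). Among the 8 ungrafted libraries they turned to -0.29 and -0.14, so the relation of Krt14 with time rested on W12. Since each timepoint has its own age and 2 libraries, the weeks stand for 5 groups rather than for a dose.

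The balance between the members moved within libraries, a comparison that does not depend on how TPM are scaled between them. Krt14 over Krt5, the type I chain over its type II partner, was 2.02 and 2.13 at D0, 1.68 and 1.77 at W1, 1.92 and 2.16 at W2, 2.63 and 3.10 at W6, and 4.52 and 5.13 at W12. The ratios at D0 and W2 overlapped, those at W1 lay below and those at W6 and W12 above. The log2 difference of Krt5 from Krt14 had a rho with the week of -0.79 (exact permutation p = 0.0109, adjusted 0.0130) and an r of -0.96 (exact permutation p = 0.000459), which among the 8 ungrafted libraries were -0.59 (exact permutation p = 0.153, adjusted 0.184) and -0.83 (exact permutation p = 0.0210, adjusted 0.0252). By rank the shift did not pass without W12.

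Within type I, the share of Krt15 relative to Krt14 was low at W6 and W12. Krt15 made up 27.3% and 27.7% of the TPM of both genes at D0, 32.6% and 29.3% at W1, and 27.95% and 21.3% at W2. At W6 it made up 1.71% and 5.03%, and at W12 0.903% and 0.639%. The share of Krt15 at W1 was thus above that at D0 in both libraries, since Krt14 was at 69.8% and Krt15 at 82.3% of their D0 means. The log2 difference of Krt15 from Krt14 had a rho of -0.79 with the week (exact permutation p = 0.0109, adjusted 0.0130), and -0.59 among the ungrafted libraries (adjusted 0.184, exact permutation), where r was -0.93 (exact permutation p = 0.00873, adjusted 0.0131). The log2 difference of Krt15 from Krt5 had a rho of -0.94 (exact permutation p = 0.000335, adjusted 0.000670) and of -0.88 among the ungrafted libraries (exact permutation p = 0.0103, adjusted 0.0206). Its mean was -0.34 before DOX, -0.37 and -0.60 at W1 and W2, and -3.53 and -4.76 at W6 and W12.

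**Figure D3:**
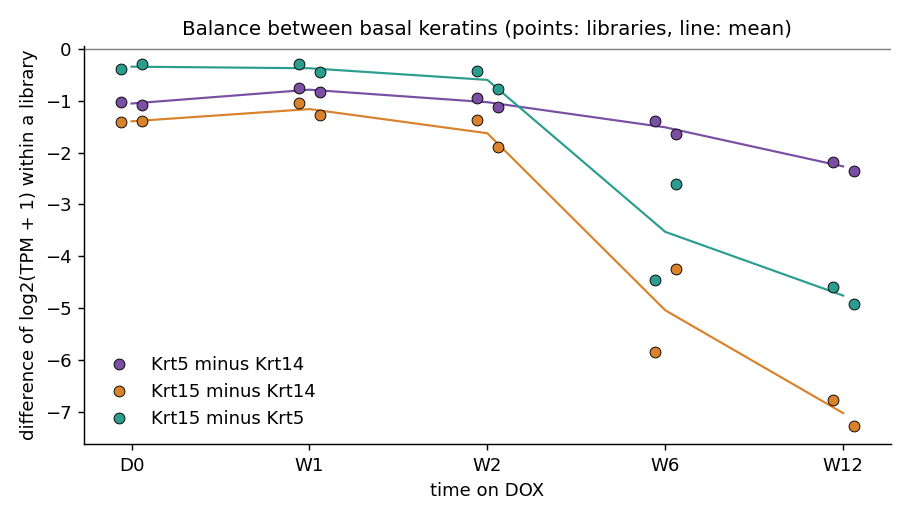
Differences of log2(TPM + 1) between members within each library (points, 2 per timepoint, lines through the means) against time on DOX. Krt5 minus Krt14 goes from a mean of -1.05 at D0 to -2.27 at W12, while Krt15 minus Krt14 (from -1.40 to -7.02) and Krt15 minus Krt5 (from -0.34 to -4.76) drop between W2 and W6.

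As a group the 3 members held a smaller part of the keratin pool from W1 on. They made up 5.59% and 5.76% of all TPM at D0, 4.30% and 4.33% at W1, 3.82% and 3.95% at W2, 3.46% and 3.51% at W6, and 4.35% and 4.53% at W12. Of all keratin TPM, summed over 54 keratin genes, they held 92.5% and 94.3% at D0, 86.1% and 82.9% at W1, 84.4% and 81.8% at W2, 58.5% and 71.3% at W6, and 75.0% and 73.2% at W12. Krt5 held 89.1% and 94.0% of type II keratin TPM at D0 and 51.1% and 46.8% at W12. Krt14 held 68.2% and 68.3% of type I keratin TPM at D0 and 82.8% and 81.7% at W12, when Krt15 was down to 0.755% and 0.525%. The ratio of all type I to all type II keratins was 2.65 and 2.93 at D0, 2.29 and 2.21 at W1, 2.20 and 2.16 at W2, 1.81 and 2.38 at W6, and 2.79 and 2.94 at W12, so that all libraries of W1, W2 and W6 lay below those of D0 and those of W12 overlapped them. The lower Krt5 and the higher Krt14 over Krt5 at W12 thus went along with more TPM of other type II keratins.

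**Figure D4:**
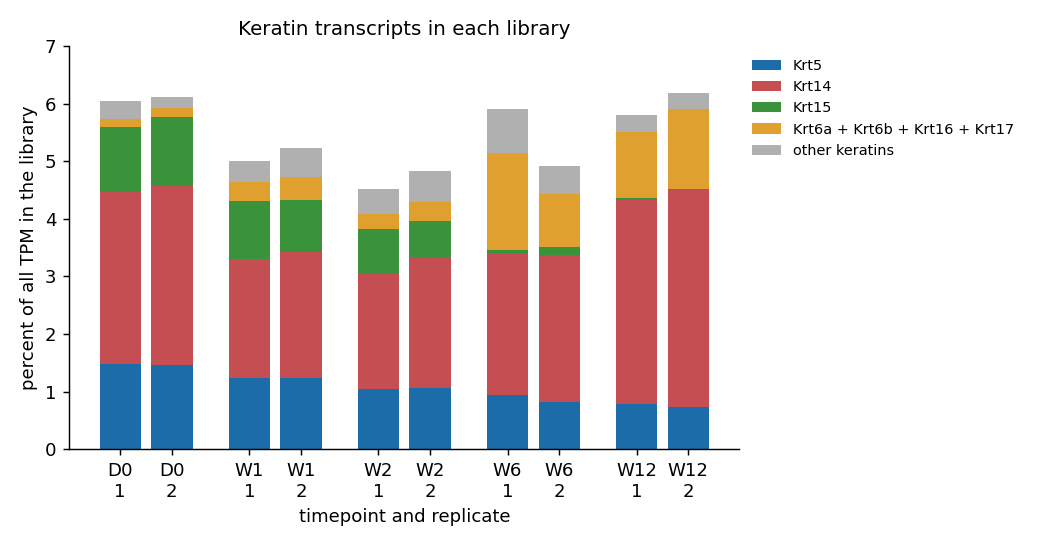
Percent of all TPM taken by keratin genes in each of the 10 libraries (bars from 0, grouped by timepoint and replicate), split into Krt5, Krt14, Krt15, the sum of Krt6a, Krt6b, Krt16 and Krt17, and all other keratins. The sum of Krt6a, Krt6b, Krt16 and Krt17 grows from 0.136% and 0.165% at D0 to 1.16% and 1.38% at W12, while Krt15 shrinks from 1.12% and 1.19% to 0.0322% and 0.0242%.

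The other keratins went both ways. Of the 51, 23 had a mean of at least 1 TPM and were tested. At W1, 3 were higher and 1 lower than at D0, at W2 7 and 2, at W6 7 and 3, and at W12 10 and 4 (9.89%, 15.7%, 32.4% and 43.0% of all genes called). Only 11 of the 23 averaged 1 TPM or more at every timepoint. Krt18, Krt19 and Krt90 reached the minimum only through W12, where all 3 were called higher, and Krt4 and Krt73 only through D0, so these counts describe the genes that passed the filter and support no comparison with all genes. The count at W2 fell from 9 to 5 without W2 replicate 1 or either W12 library and to 4 without W2 replicate 2, while the count over all genes went from 2058 to 782 without W2 replicate 1, 652 without W2 replicate 2, and 1581 and 1584 without a W12 library. Krt77, a type II keratin of suprabasal skin cells, fell by 2.95 at W6 (adjusted p = 0.0112), a call lost without W6 replicate 1 (-2.24, adjusted p = 0.0611), and fell by 5.83 at W12 (adjusted p = 0.000304) against D0. Its fall at W6 tied with that of Krt32, named after its values were seen, which also fell by 2.95 (adjusted p = 0.000598).

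The relatives that share sequence with the members had their own courses. Krt6a, a type II keratin of wounded and stressed epidermis, had TPM of 22.1 and 13.2 at D0 and 4564 and 5380 at W12, a rise of 8.10 (SE 0.47, adjusted p = 1.25e-05). Krt6b had 1.09 and 0.120 TPM at D0 and 1342 and 1330 at W12 and rose by 9.77 (SE 0.43, adjusted p = 2.98e-06). Krt16, a type I stress keratin, fell by 2.09 at W2 (adjusted p = 0.00300) and rose by 3.67 at W12 (adjusted p = 6.12e-05), from 195 ± 8.70 TPM at D0 to 2490 ± 125 at W12 (SD, n = 2). Krt17 rose by 1.37 at W1 (adjusted p = 0.0247), a call lost without D0 replicate 1 (1.21, adjusted p = 0.0715), W1 replicate 1 (1.43, adjusted p = 0.0996) or W1 replicate 2 (1.30, adjusted p = 0.165). It rose by 2.70 at W6 and by 1.60 at W12 (adjusted p = 0.000525 and 0.00372). Krt42 was at 0.906 ± 0.0937 TPM at D0 and rose by 6.67 at W6 (adjusted p = 7.69e-05). Krt79, a type II keratin of the upper hair follicle and its sebaceous ducts, rose by 3.87 at W2 (adjusted p = 0.00175) and by 4.14 at W6 (adjusted p = 0.000702), and was at 0.91 at W12 (adjusted p = 0.173). Krt75 stayed under 1 TPM in every library and was not tested. At W12, Krt16 had 6.82% of the mean TPM of Krt14, and Krt6a and Krt6b together 83.1% of that of Krt5.

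Keratin filaments of basal cells are anchored to the basement membrane by hemidesmosomes, whose 6 listed genes all passed the filter. Of these, limma called 0 at W1 and W2 against D0 (0 and 1 at an unadjusted p under 0.05), where 9.89% and 15.7% of all genes were called. It called 5 lower at W6 and 4 at W12, shares of 83.3% and 66.7%. Over all 13110 genes, 32.4% and 43.0% were called in either direction, with 1848 and 3290 genes called lower. The list's medians were -1.11 and -1.52 beside 0.08 and -0.08 over all genes. From W2 to W6, 5 were lower, where 16.3% of all genes were called in either direction (1089 genes lower). From W6 to W12 the count was 0 (3 at an unadjusted p under 0.05, and 20.2% of all genes called). This 0 did not hold with each library left out in turn. Col17a1, the transmembrane collagen XVII, fell by 1.70 at W6 (adjusted p = 0.00178). Its TPM were 686 and 1083 at D0, 630.5 and 599.6 at W2, and 217 and 320.2 at W6. Plec, which encodes plectin, the linker between keratin and the integrin, fell by 2.17 at W12 (adjusted p = 0.00201), from 120.2 and 268 TPM at D0 to 47.9 and 32.1 TPM. Itga6, the gene of the CD49f used in the sort, fell by 1.15 at W6 (adjusted p = 0.00335) and was at -0.52 at W12 (adjusted p = 0.0615). Cd151, named after its values were seen as the gene not called at W6, was at 0.52 there (adjusted p = 0.265). The counts moved with single libraries. Against D0 at W6, 2 were called without D0 replicate 2 and 3 without W6 replicate 2, when the count over all genes went from 4251 to 2356 and 3474. From W2 to W6 the list's count was 0 without either W2 library, 2 without either W6 library and 3 without either W1 library. The count over all genes went from 2137 to 207 and 331 without a W2 library, to 2626 and 1175 without a W6 library, and to 1235 and 1245 without a W1 library.

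Transcription factors described as acting on basal keratin genes were mostly lower at the late timepoints. Of 14, limma called 0 at W1 and W2 against D0 (4 and 3 at an unadjusted p under 0.05), beside 9.89% and 15.7% of all genes. The W2 count was 1 with median-ratio scaling or quantile normalization, and both counts moved off 0 without some single libraries. Against D0, limma called 8 lower at W6 and 12 at W12, shares of 57.1% and 85.7%. Over all 13110 genes, 32.4% and 43.0% were called in either direction, with 1848 and 3290 genes called lower. The list's medians were -0.83 and -1.56 beside 0.08 and -0.08 over all genes. The W12 count was 9 without D0 replicate 2, when that over all genes went from 5642 to 3737. Trp63, the master regulator of stratified epithelia that encodes p63, had TPM of 291 and 654 at D0, 209 and 211 at W1, 275 and 219 at W2, 160 and 181 at W6, and 126 and 119 at W12. It fell by 1.36 at W6 (adjusted p = 0.0125) and fell by 1.83 at W12 (adjusted p = 0.00231), while its D0 libraries differed more than 2-fold. Without D0 replicate 2, the higher of them, the changes were -0.77 at W6 (adjusted p = 0.0186) and -1.25 at W12 (adjusted p = 0.00197), and the W6 call was lost without W6 replicate 1 (-1.27, adjusted p = 0.0537). Rarg, a retinoic acid receptor, fell by 2.57 at W12 (adjusted p = 0.000104). The 2 not called at W12, named after their values were seen, were Tfap2a at -0.61 (adjusted p = 0.103) and Cebpb at -0.53 (adjusted p = 0.138).

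The genes whose log2 TPM ran most like each member over the 10 libraries were ranked by Pearson's r, given as a description without a test. Closest to Krt5 was the WNT ligand gene Wnt6 (r = 0.98), followed by Stk35, Trim65, Wnk2 and Ankrd40 (0.97 to 0.98). Wnt6 went from 37.7 TPM at D0 to 3.12 at W12, while the mean of Krt5 went from 14691 to 7588. Closest to Krt14 was Sat1, which encodes a polyamine acetyltransferase (r = 0.98, from 690.3 TPM at D0 to 292 at W1 and 871 at W12), then Dpp4, Cutc, Piga and Vamp3 (0.96 to 0.97). Closest to Krt15 was Frem2, a basement membrane protein gene (r = 0.99, 3.83 TPM at D0 and 0.167 at W12), then Slc16a10, Slc7a6, Srgap2 and Rhobtb1 (0.98 to 0.99). Among the members themselves r was 0.89 between Krt5 and Krt15, -0.33 between Krt5 and Krt14 and -0.58 between Krt14 and Krt15. With 5 timepoints of 2 libraries, many genes share such a course: 327 genes tested had a higher r with Krt5 than Krt15 had.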

How the data were processed

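RNA was measured in FACS-purified EpdSCs, with 2 replicates at each of 5 timepoints, grouped by the sample labels. The authors trimmed reads with Skewer, quantified transcripts with Salmon 1.4.0 on GENCODE release M24 transcripts of GRCm38 with the transgene added, and brought them to gene level with Tximport 1.12.3. The deposited values are TPM, which sum to 1000000 per library and hold no depth, so counting error is unknown and no interval or floor was computed from it. A table of the authors' own comparison of 4 placode samples (mean normalized counts, log2 fold changes, p-values) was not used.

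The 13110 genes whose mean reached 1 TPM were tested on log2(TPM + 1) with limma 3.58.1 in R 4.3.3, with a variance trend, all 10 libraries in 1 fit and Benjamini-Hochberg adjustment over all genes, called at 0.05. A change on this scale understates that of low genes. The study used DESeq2 on counts, which TPM do not permit. Trends over weeks used exact permutation tests. Overlaps in sequence were counted on GENCODE M21 transcripts, not the release used to assign the reads, and the promoter window was RefSeq's, which listed 2 of the 3 members. Alternatives were a pseudocount of 0.1, no filter on low values or a higher one of 5 TPM, scaling by median ratios or by quantile normalization, no variance trend, only the 4 libraries compared, no W12, a replicate block, and each library left out. Members and lists were chosen with earlier results of these data known. Named were the members, Sox9 and the transgene, the sort genes, 7 keratin relatives, the called gene with the largest rise and fall per list at W2, W6 and W12, and the 5 genes most like each member. A coding stretch of Krt5 is not reported here.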

Additional observations from a re-analysis of the deposited data

How the results depend on the processing

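The fall of Krt15 at W6 and W12 against D0 and from W2 to W6, and the run of Krt15 minus Krt5 over weeks, kept their direction and their side of the threshold in every alternative run. The calls of Krt5 were lost with only the 4 libraries compared, at -0.74 for W6 (adjusted p = 0.229) and -0.95 for W12 (adjusted p = 0.0863), where 2 residual degrees of freedom remain, and at W6 over the libraries left out the change ranged from -0.84 to -0.64. Krt5 from W6 to W12 was -0.040 under median-ratio scaling and turned to 0.10 under quantile normalization. Krt14 from W1 to W2 ranged from -0.090 to 0.10 over the libraries left out and so had no stable sign, and its step from W6 to W12 passed at 0.71 with median-ratio scaling and at 0.54 without a variance trend (adjusted p = 0.0373), with 0.49 to 0.58 over the libraries left out. Krt15 at W2 against D0 ranged from -0.91 to -0.58. The W12 fall of Krt15 against W6 was lost with a pseudocount of 0.1 (-1.45), with no filter (-1.44, adjusted p = 0.154), with median-ratio scaling (-1.27), with quantile normalization (-1.47), without a variance trend (-1.44) and with only the 4 libraries compared (-1.44, adjusted p = 0.149), and ranged from -2.27 to -0.62 over the libraries left out. Over the 8 ungrafted libraries the rho of Krt14 turned to -0.29, and those of Krt5 minus Krt14 and of Krt15 minus Krt14 were -0.59 and no longer passed. The cause of these shifts was not tested.

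Replicates share numbers, but same-numbered libraries did not deviate together (r from -0.13 to 0.18 over the 7 comparisons), so the numbers do not pair them. With the replicate block the fall of Krt15 from W6 to W12 was -1.44 (adjusted p = 0.0678), no other member's call changed, and the count of called genes from W2 to W6 went from 2137 to 1396 and from W1 to W2 from 15 to 6. With only the 4 libraries compared, called genes went from 1296 to 411 at W1, from 2058 to 1086 at W2, from 4251 to 1094 at W6, from 15 to 80 for W1 to W2, from 2137 to 966 for W2 to W6 and from 2642 to 887 for W6 to W12. With no filter they were 606 at W1, 1011 at W2 and 940 for W2 to W6. Without the W12 libraries they were 6 for W1 to W2 and 1271 for W2 to W6, and a pseudocount of 0.1 gave 7 for W1 to W2. Over the libraries left out, called genes ranged from 377 to 1773 at W1, from 652 to 2647 at W2, from 2356 to 5047 at W6 and from 3362 to 6291 at W12 against D0, and from 0 to 83 for W1 to W2, from 207 to 3179 for W2 to W6 and from 761 to 3223 for W6 to W12. Hemidesmosome genes called at W6 went from 5 to 2 with no filter and to 1 with only 4 libraries, and from W2 to W6 from 5 to 1 with no filter and to 3 without a variance trend. Regulators called at W6 went from 8 to 2 and other keratins at W2 from 9 to 5 with only 4 libraries. With 2 libraries a timepoint, every error here leans on the spread shared over all timepoints, and where 1 library is left out the lone one is assumed to vary like the rest. The replicates of W6 had the lowest correlation (r = 0.96), and those of W2 the highest (0.99).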
